A study of Mus musculus with 16 samples.

Results

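The 10 genes studied here, which set or read the activity of mTORC1, were followed in tibialis anterior muscle of mice given vehicle, GDF15 or the reduced food ration of GDF15-treated mice. They were chosen by name: the kinase Mtor and its partner Rptor, the substrates Rps6kb1 and Eif4ebp1, the brakes Deptor, Ddit4, Ddit4l, Sesn1 and Sesn3, and the amino acid relay Rragd. All 10 were among the 14538 genes of the table and all 10 passed the filter on low values that left 11841 genes for testing. None of the 10 differed between any 2 groups by the thresholds that the study set for this muscle, an adjusted p under 0.1 together with a log2 fold change over 0.6 in size. On the adjusted p alone, Ddit4l and Sesn1 were lower in mice treated with GDF15 than in pair-fed controls and Eif4ebp1 was higher in pair-fed controls than in vehicle-treated mice, each by less than 0.4 on the log2 scale.

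mTORC1 is the protein kinase complex through which muscle couples amino acids, insulin and energy supply to protein synthesis. Its kinase subunit is mTOR, raptor brings in substrates, and the best known of these are S6 kinase and the 4E-BP proteins, which hold the cap-binding factor eIF4E until they are phosphorylated. Rag GTPases carry the amino acid signal to the complex at the lysosome, GATOR1 restrains the Rags while GATOR2 opposes GATOR1, sestrins bind and hold back GATOR2, the REDD proteins restrain the complex through TSC and Rheb, and DEPTOR binds and inhibits mTOR itself. The control exerted by these proteins is largely by phosphorylation and binding, which RNA levels do not measure.

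The mice were wild-type in all 3 groups, of a background that the labels give as C57BL/6 and the study's methods as C57BL/6J males, kept near thermoneutrality at about 29 °C on a steatohepatitis-inducing diet rich in fat and fructose from 8 weeks of age and housed singly. Vehicle-treated mice (n = 5) received buffer, GDF15-treated mice (n = 6) a daily morning injection of recombinant GDF15 under the skin, and pair-fed mice (n = 5, numbered 2 to 6) the weight of food that the GDF15 group had eaten on the previous day. The labels list several doses without saying which of them these 6 mice received, and age at sampling was not stated for these libraries. Each library came from bulk muscle tissue of 1 mouse, so fewer cells of a type and less RNA per cell cannot be told apart.

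Values are normalized counts, that is, estimated counts per gene divided by the size factor of the library, recovered from the deposited variance-stabilized values. The libraries held about 9472136 to 15021335 assigned reads by the size of the smallest steps in the values, with 9472136 to 13831272 in GDF15-treated mice, 11774516 to 14754365 in pair-fed mice and 11872644 to 15021335 in vehicle-treated mice. All 8 myofibre markers were present, with a summed level of 1.89e+06 to 2.26e+06 normalized counts. Markers of other cells summed to 4141 to 5867 for endothelium, 2161 to 5068 for fibroblasts and tendon, 620 to 1618 for Schwann cells, 317 to 793 for macrophages and leukocytes, 50.8 to 1194 for adipocytes, 79.9 to 3743 for red blood cells and 44.6 to 76.0 for satellite cells. All of these ranges overlapped between GDF15-treated and pair-fed mice. Medians with GDF15 and with pair-feeding were 2.00e+06 and 2.11e+06 for myofibre, 4570 and 4724 for endothelium, and 3775 and 2942 for fibroblasts and tendon. They were 1346 and 907 for Schwann cells, 642 and 487 for macrophages and leukocytes, and 289 and 256 for adipocytes. For red blood cells they were 1846 and 2009, and for satellite cells 57.9 and 62.7. Differences are given as log2 fold changes of log2(normalized count + 1) with their standard errors, from limma fitted to all 16 libraries, with p-values adjusted by the Benjamini-Hochberg procedure over the 11841 genes.

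No difference in the kinase itself passed the test. Mtor (chr4:148448611-148557683, plus strand, GRCm38) stood at 745, 552, 664, 778 and 568 normalized counts in the vehicle-treated mice, at 585 to 797 with a median of 692 in the 6 GDF15-treated mice and at 608, 724, 545, 688 and 517 in the pair-fed mice. The 3 groups overlapped over most of their ranges. Its log2 fold change was 0.16 ± 0.11 (SE) for GDF15 against pair-feeding (adjusted p = 0.55), 0.06 ± 0.11 for GDF15 against vehicle (adjusted p = 0.889) and -0.10 ± 0.11 for pair-feeding against vehicle (adjusted p = 0.691).

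Rptor (chr11:119602905-119899576, plus strand) encodes raptor. It lay between 641 and 691 in the vehicle-treated mice, at 660, 691, 667, 665 and 641 normalized counts, which was the narrowest spread of any of the 10 genes in a group (coefficient of variation 2.69%). The GDF15-treated mice covered 574 to 724 (median 616) and the pair-fed mice stood at 586, 608, 685, 508 and 567, so that 5 of 6 GDF15-treated mice and 4 of 5 pair-fed mice lay below the lowest vehicle-treated mouse. The log2 fold change of pair-feeding against vehicle was -0.18 ± 0.07 (adjusted p = 0.189). Without pair-fed mouse 4 it was -0.23 with an adjusted p of 0.067, and no other alternative fit brought Rptor past 0.1 there. GDF15 differed from pair-feeding by 0.08 ± 0.07 (adjusted p = 0.638) and from vehicle by -0.09 ± 0.07 (adjusted p = 0.673). Exons of Rptor overlap the antisense gene Rptoros. The strand setting of the counting is not given in the sources used here, so it is not known whether reads of the pair were told apart.

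Deptor (chr15:55112317-55259271, plus strand), the inhibitor that sits in the complex, stayed within a narrow band. It stood at 1084, 1014, 950, 921 and 1001 normalized counts in vehicle-treated mice, at 930 to 1095 (median 1070) in GDF15-treated mice and at 1051, 867, 1049, 1094 and 1011 in pair-fed mice. The log2 fold changes in the 3 comparisons lay between 0.02 and 0.05, with 95% intervals that ran no further than -0.12 below and 0.19 above 0. Its exons overlap those of Gm9920 on the opposite strand.

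Rragd (chr4:32983037-33022180, plus strand) encodes RagD, one of the Rag GTPases that recruit mTORC1 to the lysosome. It had the smallest coefficient of variation of the 10 genes in the GDF15-treated mice (4.75%) and in the pair-fed mice (3.19%). The values were 3923, 3343, 3565, 3614 and 3764 normalized counts with vehicle, 3526 to 3927 (median 3650) with GDF15, and 3745, 3592, 3644, 3800 and 3889 with pair-feeding. The 3 ranges lay almost on top of one another. The log2 fold change was -0.01 ± 0.04 for GDF15 against pair-feeding (95% interval -0.10 to 0.08, adjusted p = 0.931) and 0.04 ± 0.05 for pair-feeding against vehicle (95% interval -0.06 to 0.13, adjusted p = 0.712). The interval for GDF15 against vehicle was -0.07 to 0.11, so that the intervals of all 3 comparisons ran between -0.10 and 0.13.

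The sestrins restrain the Rag pathway when leucine is scarce. Sesn1 (chr10:41809935-41908424, plus strand) stood at 439, 407, 372, 332 and 374 normalized counts in vehicle-treated mice, at 317, 392, 362, 308, 332 and 353 in GDF15-treated mice, and at 385, 478, 415, 439 and 492 in pair-fed mice. The pair-fed mice were the highest group and the GDF15-treated mice the lowest, with overlap only between the lowest pair-fed mouse (385) and the highest GDF15-treated mouse (392). GDF15 against pair-feeding gave a log2 fold change of -0.36 ± 0.08 (95% interval -0.53 to -0.19, adjusted p = 0.0486), or 0.779 times the pair-fed level. Against vehicle, the GDF15-treated mice differed by -0.16 ± 0.08 (adjusted p = 0.493) and the pair-fed mice by 0.20 ± 0.09 (adjusted p = 0.216), so neither group passed against vehicle. The first comparison lost its adjusted p under 0.1 without GDF15-treated mouse 4 (0.117), without pair-fed mouse 5 (0.123), without pair-fed mouse 6 (0.13) and with the depth of the library as a covariate (0.116).

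Sesn3 (chr9:14275067-14333101, plus strand), the sestrin best known as a FOXO target, held 263, 250, 259, 239 and 257 normalized counts in vehicle-treated mice, 216 to 266 (median 227) in GDF15-treated mice, and 269, 230, 231, 228 and 311 in pair-fed mice. Pair-fed mouse 6 (311) was the highest of the 16, apart from the rest, and the other 15 mice overlapped between 216 and 269. The log2 fold change was -0.12 ± 0.08 for GDF15 against both pair-feeding (adjusted p = 0.585) and vehicle (adjusted p = 0.631), and -0.01 ± 0.09 for pair-feeding against vehicle (adjusted p = 0.976).

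The REDD genes act upstream of TSC and Rheb. Ddit4l (chr3:137621612-137628333, plus strand), which encodes REDD2, a form known mainly from skeletal muscle, stood at 3185, 3444, 4288, 3132 and 3367 normalized counts in vehicle-treated mice. In GDF15-treated mice it stood at 3074, 3333, 2602, 2549, 2647 and 2814, and in pair-fed mice at 3682, 3376, 3561, 4054 and 3915. Every GDF15-treated mouse lay below every pair-fed mouse, the closest being 3333 and 3376, while the vehicle-treated mice lay across the 2 groups. GDF15 against pair-feeding gave a log2 fold change of -0.39 ± 0.08 (95% interval -0.56 to -0.22, adjusted p = 0.0322), or 0.761 times the pair-fed level. The difference from vehicle was -0.29 ± 0.08 (95% interval -0.46 to -0.12) and missed the threshold (adjusted p = 0.153), and pair-fed mice differed from vehicle-treated mice by 0.10 ± 0.08 (adjusted p = 0.573). The adjusted p for GDF15 against pair-feeding was 0.101 without pair-fed mouse 5 and 0.116 with depth as a covariate. Vehicle-treated mouse 3 stood apart from the rest of its group, and without it the value against pair-feeding had an adjusted p of 0.0114 and that against vehicle was -0.22 with an adjusted p of 0.305. Without GDF15-treated mouse 2, the difference from vehicle was -0.34 with an adjusted p of 0.0973.

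Ddit4 (chr10:59949669-59951834, minus strand) encodes REDD1, which is known for its induction by glucocorticoids, low oxygen and energy stress. Its SD within each group, 74.8 to 134 normalized counts, was larger than any difference between the group means (243, 276 and 264 with vehicle, GDF15 and pair-feeding). Vehicle-treated mice held 155, 318, 311, 320 and 109 normalized counts, GDF15-treated mice 251, 182, 372, 342, 298 and 210, and pair-fed mice 130, 350, 290, 427 and 126. In the vehicle and pair-fed groups, 2 mice lay near 109 to 155 and the other 3 between 290 and 427, with nothing between, whereas the GDF15-treated mice were spread from 182 to 372. The coefficient of variation was 42.1% with vehicle, 27.1% with GDF15 and 50.5% with pair-feeding, against a median over all tested genes of 10.5%, 11.8% and 11.1%. In the vehicle-treated mice 95.9% of tested genes varied less, in the pair-fed mice 96.6% and in the GDF15-treated mice 84.4%. The intervals of the comparisons were accordingly wide, from -0.53 to 0.90 for GDF15 against pair-feeding (log2 fold change 0.19 ± 0.34, adjusted p = 0.853), from -0.45 to 0.98 for GDF15 against vehicle (0.27 ± 0.34, adjusted p = 0.838) and from -0.67 to 0.82 for pair-feeding against vehicle (0.08 ± 0.35, adjusted p = 0.935). A difference past the fold threshold of 0.6 in either direction was within the interval only for pair-feeding against vehicle, and a higher level of that size was within all 3. The Ddit4 difference moved with the fit, with values from -0.06 to 0.40 over 28 alternative fits for GDF15 against pair-feeding (25 with the same sign), from -0.18 to 0.30 for pair-feeding against vehicle (24 with the same sign) and from 0.01 to 0.40 for GDF15 against vehicle (28 with the same sign).

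**Figure D1:**
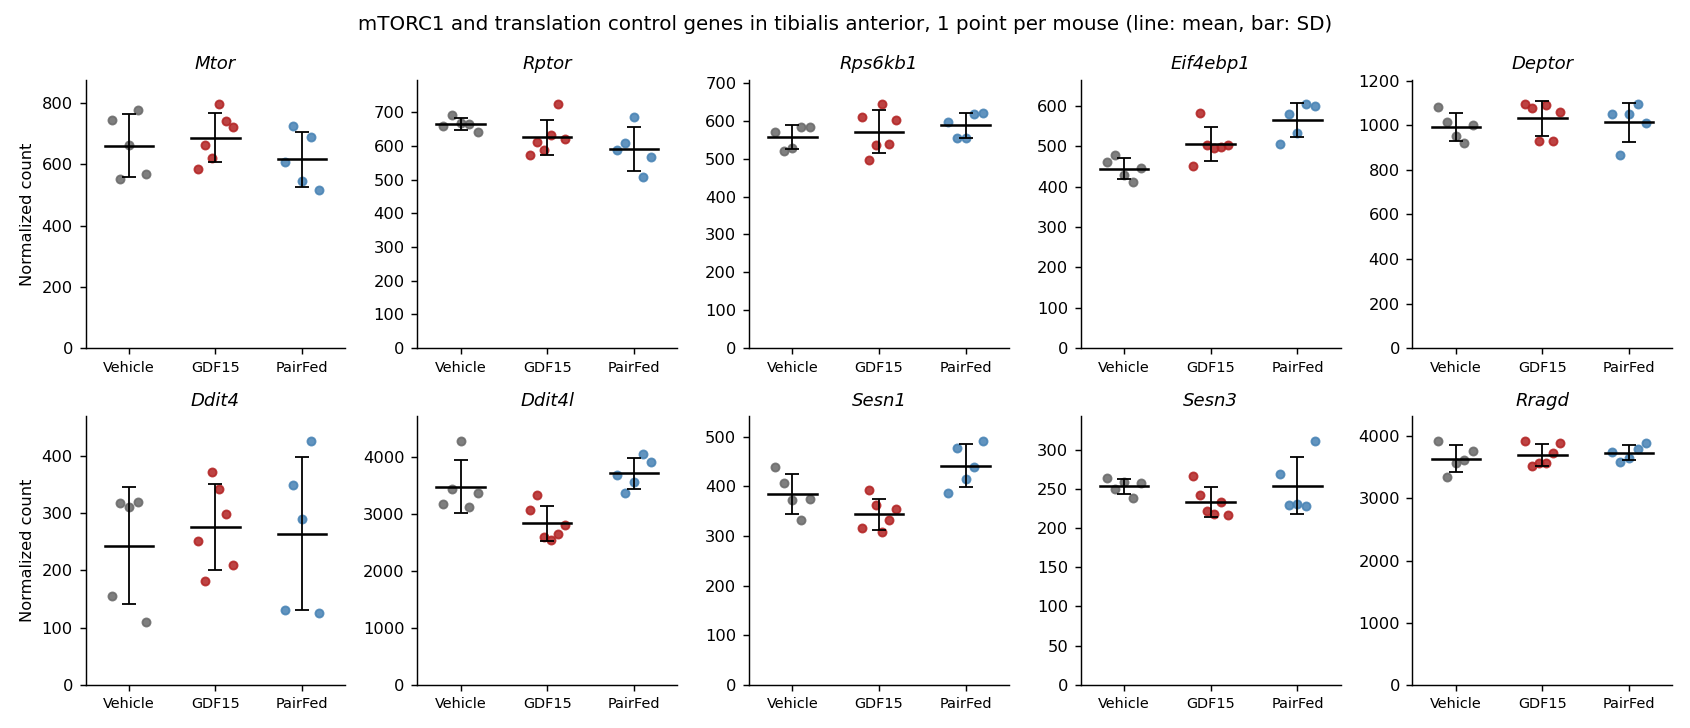
Normalized counts of the 10 genes in each mouse (points), by group, with the group mean (line) and SD (bar); every axis starts at 0. Every GDF15-treated mouse lay below every pair-fed mouse for Ddit4l, every pair-fed mouse lay above every vehicle-treated mouse for Eif4ebp1, and Ddit4 had the widest spread relative to its group means.

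Promoter sequence was looked at for the brakes that were lower with GDF15 than with pair-feeding. RefSeq windows of 300 bases on GRCm38.p6, 250 before the annotated start and 50 after it, were at hand for 8 of the 10 genes (Eif4ebp1 and Deptor had none), with an alternative start for Sesn1. They were searched on both strands for 4 motifs, picked after the expression values were known: the E-box CACGTG, the cAMP response element TGACGTCA, the FOXO site GTAAACA and the TATA box TATAAA. These letters occur in 7.15%, 1.79%, 3.65% and 13.6% of the 32851 RefSeq promoter windows. Of the 8 genes with a window, Ddit4l and Sesn1 held 1 of them each and the other 6 held none. The same search covered the other pathway genes with an adjusted p under 0.1, described below. Fnip1 held the E-box, Flcn held the cAMP response element, and Mlst8, Castor2, Ulk1, Eif4a2 and Eif4b held none. The Ddit4l window, chr3:137623422-137623721 on the plus strand, held TATAAA from base 286, after the annotated start. The Sesn1 window, chr10:41810324-41810623 on the plus strand, held the FOXO letters on the opposite strand from base 273, likewise after the start. The window at the other Sesn1 start, chr10:41887189-41887488, held none of the 4. The windows of Ddit4l and Sesn1 with a match are printed 5′ to 3′ because they belong to the brakes that passed the adjusted p, with the matched letters in capitals.
Ddit4l: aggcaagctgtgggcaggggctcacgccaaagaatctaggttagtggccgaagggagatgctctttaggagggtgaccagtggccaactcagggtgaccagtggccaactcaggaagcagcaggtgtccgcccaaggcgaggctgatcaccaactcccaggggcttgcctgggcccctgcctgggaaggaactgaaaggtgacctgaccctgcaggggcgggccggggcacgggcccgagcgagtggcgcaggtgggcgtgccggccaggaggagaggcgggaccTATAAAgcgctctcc
Sesn1: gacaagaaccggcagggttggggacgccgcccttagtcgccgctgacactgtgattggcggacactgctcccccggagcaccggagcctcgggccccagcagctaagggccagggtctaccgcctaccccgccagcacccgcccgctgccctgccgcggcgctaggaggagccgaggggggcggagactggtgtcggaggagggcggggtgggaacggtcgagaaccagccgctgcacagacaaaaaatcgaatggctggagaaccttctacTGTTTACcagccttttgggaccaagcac
A match describes the letters of the window, and binding was not measured.

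Among the substrates, Rps6kb1 (chr11:86498871-86544805, minus strand), which encodes S6 kinase 1, stood at 569, 521, 527, 584 and 584 normalized counts with vehicle, at 495 to 644 (median 571) with GDF15 and at 597, 554, 553, 617 and 620 with pair-feeding. All 3 groups overlapped. Its log2 fold change was -0.05 ± 0.07 for GDF15 against pair-feeding (adjusted p = 0.805), 0.03 ± 0.07 for GDF15 against vehicle (adjusted p = 0.908) and 0.08 ± 0.07 for pair-feeding against vehicle (adjusted p = 0.587). Exons of Rps6kb1 overlap those of Rnft1 on the opposite strand.

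Eif4ebp1 (chr8:27260329-27276674, plus strand) encodes 4E-BP1, the repressor that releases eIF4E when mTORC1 phosphorylates it. It stood at 460, 479, 428, 411 and 446 normalized counts in vehicle-treated mice, at 451, 582, 503, 495, 499 and 502 in GDF15-treated mice, and at 506, 581, 533, 604 and 599 in pair-fed mice. Every pair-fed mouse lay above every vehicle-treated mouse, and the GDF15-treated mice lay between and overlapped both. Pair-feeding against vehicle gave a log2 fold change of 0.34 ± 0.07 (95% interval 0.20 to 0.49, adjusted p = 0.0123), or 1.27 times the vehicle level. GDF15 against vehicle gave 0.18 ± 0.07 (95% interval 0.04 to 0.32, adjusted p = 0.3) and GDF15 against pair-feeding -0.16 ± 0.07 (95% interval -0.30 to -0.02, adjusted p = 0.301), and neither passed. The higher level in pair-fed mice kept an adjusted p between 0.00776 and 0.0521 in all 28 alternative fits, which included leaving out each mouse in turn.

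**Figure D2:**
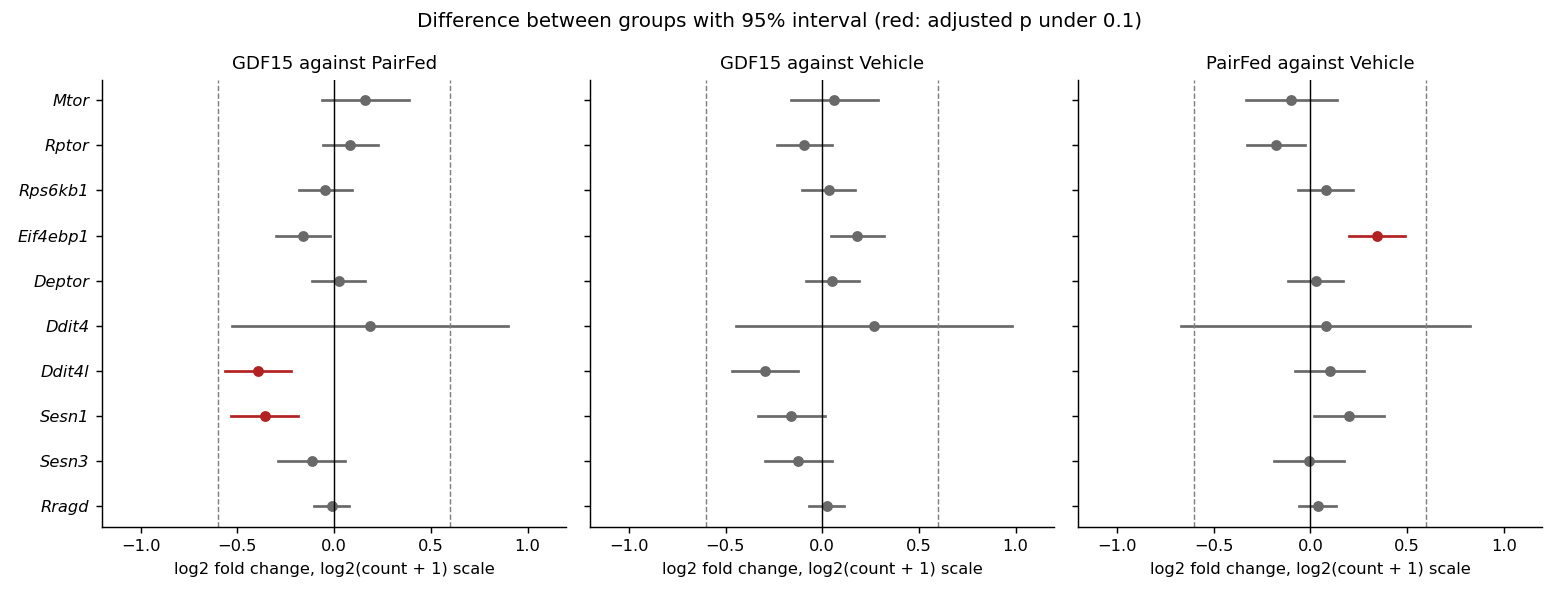
Log2 fold change of each of the 10 genes (point) with its 95% interval (line) in the 3 comparisons; dashed lines mark 0.6 in either direction, and red marks an adjusted p under 0.1. No point lay beyond the dashed lines, and Ddit4 had the widest interval in each comparison.

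The counts are set beside those over all tested genes. For GDF15 against pair-feeding, 0 of the 10 genes passed both thresholds, where 0.279% of all tested genes did, 2 passed the adjusted p alone (2.17% of all), and 1, Ddit4l, did not overlap between the groups (1.77% of all), while 3 had a limma p under 0.05 before adjustment (13.2% of all). For GDF15 against vehicle, 0 passed both thresholds (0.304% of all), 0 the adjusted p alone (0.769% of all) and 0 did not overlap (1.65% of all), while 2 of the 10, Eif4ebp1 and Ddit4l, had a limma p under 0.05 before adjustment (11% of all). For pair-feeding against vehicle, 0 passed both thresholds (0.819% of all), 1 the adjusted p alone (6.37% of all), and 1, Eif4ebp1, did not overlap (5.44% of all), while 3 had a limma p under 0.05 before adjustment (18.9% of all). The median log2 fold change of the 10 genes was -0.03, 0.03 and 0.06 in the 3 comparisons, and that of all tested genes 0.00 in each. Each group enters 2 of the comparisons, so a group's values count in both.

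The wider pathway was followed with a list of 93 genes of the mTOR complexes, the Rag GTPases and their regulators, the TSC branch, the mTORC1 targets, and the initiation factors eIF4F, eIF4B and eIF2 with its kinases, of which 90 were in the table and 89 were tested, the 10 genes above included. The list, with the 10 genes in it, was chosen with earlier results of these data known. Its shares are therefore given as a description and not as a test. None of the 89 passed both thresholds in any comparison. On the adjusted p alone, 5 passed for GDF15 against pair-feeding (1 higher, 4 lower), which is 5.62% of the list against 2.17% of all tested genes (110 higher, 147 lower). For GDF15 against vehicle 1 passed (lower), 1.12% of the list against 0.769% of all (51 higher, 40 lower). For pair-feeding against vehicle 8 passed (6 higher, 2 lower), 8.99% of the list against 6.37% of all (379 higher, 375 lower), a share near that of all genes. The median log2 fold change of the list was -0.01, 0.03 and 0.05. The genes named in the next 3 paragraphs were picked because they passed the adjusted p.

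**Figure D3:**
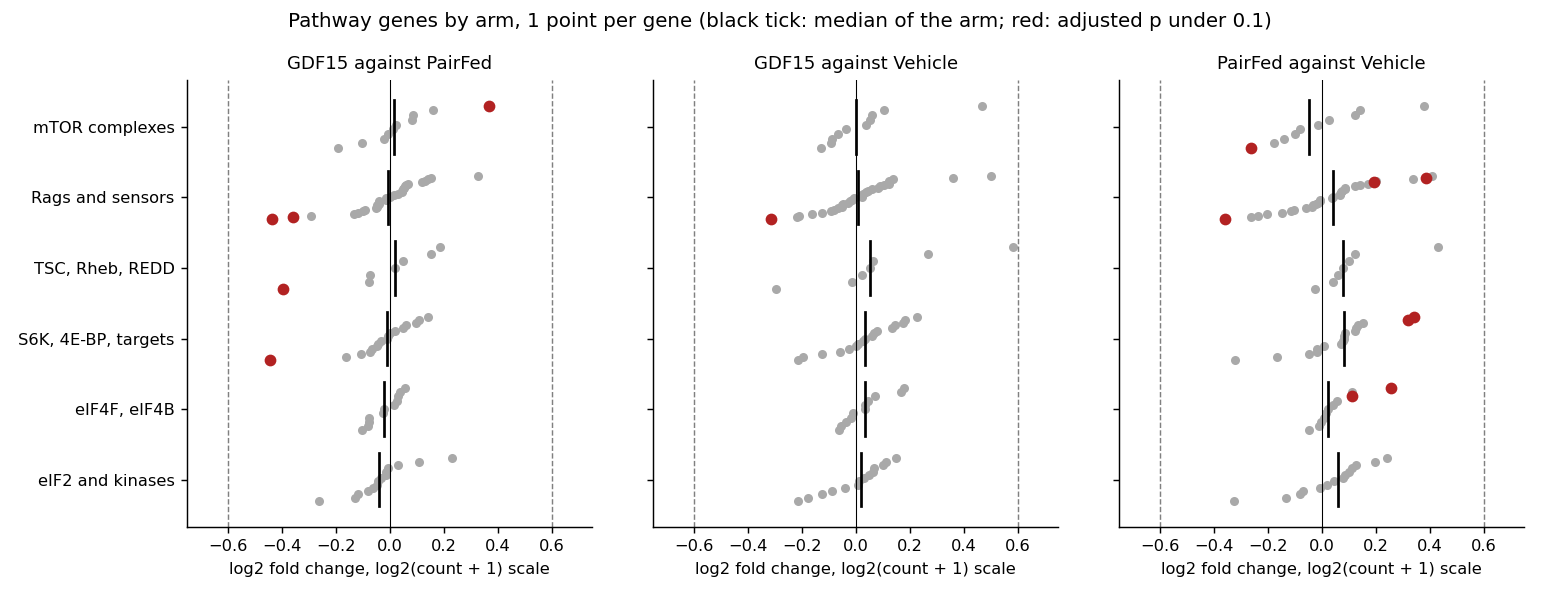
Log2 fold changes of the 89 tested pathway genes (points), by arm of the pathway, in the 3 comparisons; the black tick is the median of the arm, red marks an adjusted p under 0.1 and dashed lines mark 0.6 in either direction. No gene lay beyond 0.6, and the medians of the arms lay between -0.05 and 0.08.

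For GDF15 against pair-feeding, the genes beside Ddit4l and Sesn1 were Fnip1, Ulk1 and Mlst8. Fnip1 encodes a partner of folliculin, with which it acts on RagC and RagD, and stood at 895, 690, 660, 643 and 736 normalized counts with vehicle, at 669 to 735 (median 687) with GDF15, and at 905, 972, 826, 1032 and 978 with pair-feeding. All 6 GDF15-treated mice lay below all 5 pair-fed mice, and 1 vehicle-treated mouse reached the pair-fed range. Its log2 fold change was -0.44 ± 0.07 for GDF15 against pair-feeding (adjusted p = 0.0107) and 0.38 ± 0.08 for pair-feeding against vehicle (adjusted p = 0.0131), against -0.05 ± 0.07 for GDF15 against vehicle (adjusted p = 0.865).

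Ulk1, the autophagy kinase that mTORC1 phosphorylates and inhibits, followed the same order of means. It stood at 1791, 1774, 1721, 1911 and 1808 normalized counts with vehicle, at 1450 to 1805 (median 1678) with GDF15, and at 2364, 1811, 2164, 2346 and 2619 with pair-feeding. Pair-fed mouse 3 lay near the vehicle-treated mice and the other 4 pair-fed mice lay above all mice of the other groups. GDF15 against pair-feeding gave -0.44 ± 0.08 (adjusted p = 0.0107) and pair-feeding against vehicle 0.32 ± 0.08 (adjusted p = 0.0355). Mlst8, a subunit of both mTOR complexes, went the other way, with 243, 223, 246, 231 and 250 normalized counts with vehicle, 225 to 289 (median 257) with GDF15, and 209, 212, 199, 162 and 219 with pair-feeding. All 5 pair-fed mice lay below all mice of the other 2 groups. GDF15 against pair-feeding gave 0.37 ± 0.08 (adjusted p = 0.0398) and pair-feeding against vehicle -0.26 ± 0.08 (adjusted p = 0.0951). The first of these had an adjusted p of 0.101 without pair-fed mouse 5, and exons of Mlst8 overlap those of Bricd5 on the opposite strand.

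Castor2, a relative of the arginine sensor CASTOR1, was lower than with vehicle in both groups that ate less. It stood at 2477, 2251, 2314, 2211 and 2137 normalized counts with vehicle, at 1573 to 1977 (median 1867) with GDF15, and at 1726, 1909, 2162, 1598 and 1545 with pair-feeding. The log2 fold change against vehicle was -0.32 ± 0.08 for GDF15 (adjusted p = 0.0922) and -0.36 ± 0.08 for pair-feeding (adjusted p = 0.02), and the 2 groups differed from each other by 0.04 ± 0.08 (adjusted p = 0.846). The first of these kept an adjusted p under 0.1 in 12 of 28 alternative fits and the second in all 28. Higher with pair-feeding than with vehicle were also Eif4b, a helper of the eIF4A helicase and a target of S6 kinase (0.26 ± 0.05, adjusted p = 0.016), Flcn, which encodes folliculin (0.19 ± 0.06, adjusted p = 0.09), and Eif4a2, one of the eIF4A helicases (0.11 ± 0.04, adjusted p = 0.095). Exons of Eif4a2 overlap those of Rfc4 on the opposite strand and those of Snora81, Snord2 and other genes on its own strand. Of 28 alternative fits, an adjusted p under 0.1 for pair-feeding against vehicle was kept in 12 for Flcn, 11 for Eif4a2 and 10 for Mlst8, and in all 28 for Eif4b. Eif4b lay at 2977 to 3736 normalized counts with vehicle, at 3865 to 4339 with pair-feeding and at 3758 to 4011 with GDF15, so that neither group overlapped with vehicle. The difference of GDF15 from vehicle was 0.18 ± 0.05 (adjusted p = 0.179).

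**Figure D4:**
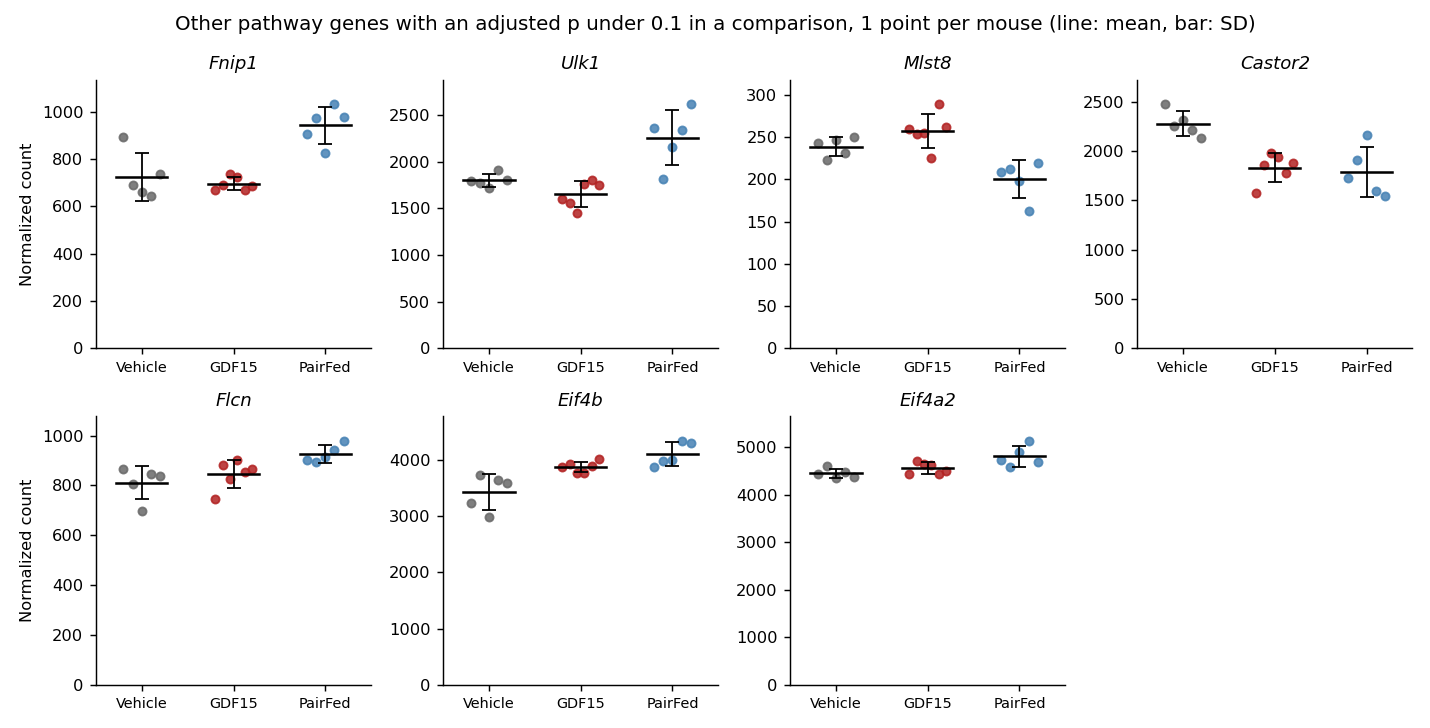
Normalized counts in each mouse (points) of the 7 other pathway genes with an adjusted p under 0.1 in at least 1 comparison, by group, with the group mean (line) and SD (bar); axes start at 0. All 6 GDF15-treated mice lay below all 5 pair-fed mice for Fnip1 and Ulk1, and above them for Mlst8.

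Depth and cell markers were set beside these differences. The 2 libraries with the fewest reads were both from GDF15-treated mice (9472136 and 10560716), and with depth as a covariate the log2 fold changes of GDF15 against pair-feeding were -0.37 for Ddit4l and -0.37 for Sesn1. Endothelial markers summed to 4141 to 5170 normalized counts with GDF15, 4306 to 5179 with pair-feeding and 4920 to 5867 with vehicle, and their part in the differences from vehicle was not tested. Myofibre markers summed to 2.03e+06 to 2.26e+06 with pair-feeding, 1.89e+06 to 2.12e+06 with vehicle and 1.92e+06 to 2.10e+06 with GDF15, and their part was not tested either.

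The levels of the 10 genes were compared with one another per kilobase of annotated exon (GENCODE vM21), as means over all 16 mice. The highest was Ddit4l, at 1137 ± 176 normalized counts per kilobase (SD), above 96.6% of 11670 tested genes with a length. Rragd followed at 714 ± 32.5 and Eif4ebp1 at 230 ± 27.7, and these 3 did not overlap with one another over the 16 mice. Ddit4 (149 ± 55.9), Deptor (114 ± 8.29) and Sesn1 (97.3 ± 13.8) came next, each overlapping its neighbour in the order, and the range of Eif4ebp1 also overlapped that of Ddit4. Rps6kb1 (66.1 ± 4.83) lay below Sesn1 without overlap and Mtor (65.0 ± 8.79) overlapped both of them and Rptor (46.5 ± 4.09), which stood near the median tested gene (44.3). Sesn3 was lowest at 16.1 ± 1.61, with no overlap with Rptor. With the length of the longest coding transcript in place of the exon union, part of the order turned. Rps6kb1 (103) then stood above Sesn1 (102) and Rptor (95.1) above Mtor (76.7), with overlap in both cases, and Sesn3 (26.9) stayed lowest without overlap with Mtor.

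**Figure D5:**
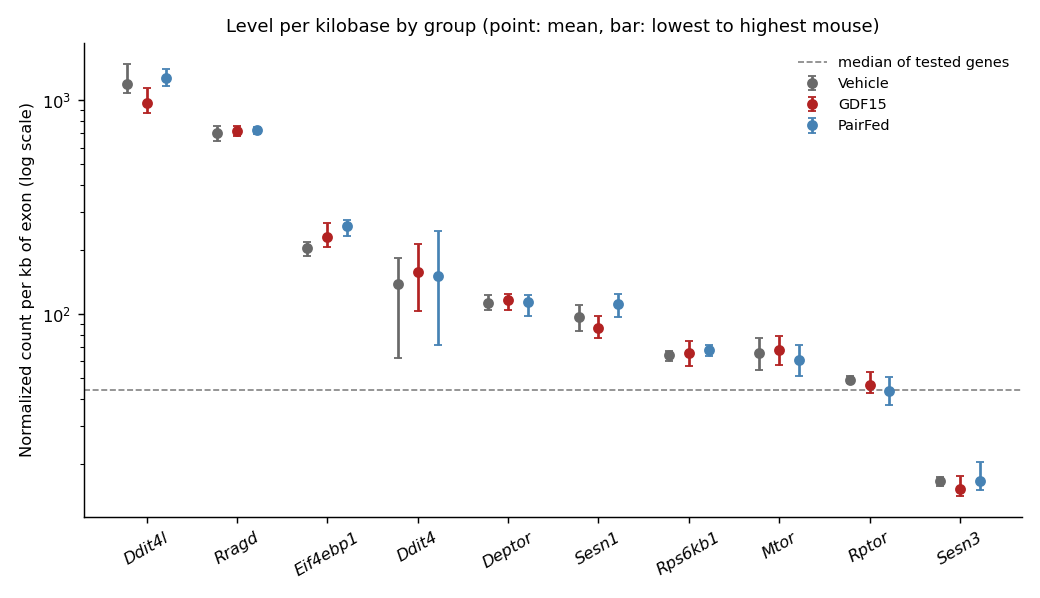
Mean normalized count per kilobase of exon (points, log axis) of the 10 genes in each group, with bars from the lowest to the highest mouse; the dashed line is the median of tested genes, 44.3. Ddit4l and Rragd were the highest, Sesn3 the lowest, and Ddit4 spanned the widest range between mice on this log axis.

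The members were also set beside their paralogues on the same per-kilobase scale. Ddit4l made up 88.3% ± 4.48 (SD, n = 16) of the summed REDD level and Ddit4 11.7%. The share of Ddit4l ranged from 80.8% to 91.7% in GDF15-treated mice, from 85.1% to 94.9% in pair-fed mice and from 85.5% to 94.9% in vehicle-treated mice, which overlap. Sesn1 made up 75.3% ± 2.47 of the sestrin level, Sesn3 12.6% ± 1.37 and Sesn2 12.1% ± 1.66. Rragd made up 85.3% ± 0.75 of the pair of RagC and RagD, and Rraga 97.3% ± 0.81 of the pair of RagA and RagB. Of the 4E-BP genes, Eif4ebp1 gave 18.9% ± 1.83 and Eif4ebp2 80.2% ± 1.94, with 0.96% from Eif4ebp3, which did not pass the filter on low values. Rps6kb1 and Rps6kb2 shared the S6 kinase level about evenly, with 50.1% ± 2.84 from Rps6kb1. None of Sesn2, Rragc, Rraga, Eif4ebp2 and Rps6kb2 passed the adjusted p in any comparison. For Sesn2 the log2 fold change was -0.29 ± 0.14 for GDF15 against pair-feeding (adjusted p = 0.378) and 0.34 ± 0.14 for pair-feeding against vehicle (adjusted p = 0.214).

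Within groups, after each mouse was set against its group mean, 1 of the 45 pairs of the 10 genes passed a permutation test that shuffled mice within groups (two-sided, 100000 shuffles, adjusted over the 45 pairs). Eif4ebp1 and Sesn1 went together from mouse to mouse, with r = 0.82 (permutation p = 0.00039, adjusted p = 0.0176) and rho = 0.86 (permutation p = 0.00027, adjusted p = 0.0122) over 16 mice, and r = 0.80 without the 2 mice farthest from the median of Eif4ebp1. The next pair in size was Ddit4 and Sesn3, with r = -0.66 (permutation p = 0.0115, adjusted p = 0.259) and rho = -0.70 (permutation p = 0.00648, adjusted p = 0.146), which did not pass. All values of a mouse come from the same library, and how often other pairs of genes would pass was not tested.

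The tested genes most like each of these members over the 16 libraries were listed as a description, without removing the group means. For Ddit4l they were Mplkip (r = 0.88, rho = 0.82), Tardbp (r = 0.86, rho = 0.85) and Cish (r = 0.86, rho = 0.81), and for Sesn1 they included Ube2g1 (r = 0.85, rho = 0.86) and Panx1 (r = 0.81, rho = 0.81). For Eif4ebp1 they were Zcchc24 (r = 0.88, rho = 0.90), Klf15 (r = 0.86, rho = 0.89) and Bnip3l (r = 0.85, rho = 0.84), and for Ddit4 they were Mpp5 (r = 0.86, rho = 0.88), Nfkbia (r = 0.83, rho = 0.82) and Fam149b (r = 0.82, rho = 0.81). These are among the highest of 11840 correlations for each gene, and the 2 values of each point come from the same library, with its depth and its group.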

How the data were processed

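Total RNA of 16 tibialis anterior muscles was sequenced from directional libraries. The authors used Trim Galore for trimming, Salmon for quantification and DESeq2 for normalization, with build mm10 per the labels; versions, annotation and strand setting are not given in the sources used here. The deposited table holds log2 values for 14538 genes, from 7.32 to 19.96, with 8459 at the lowest. Their form, a variance-stabilizing transformation, was inferred from the values, and its inverse gave normalized counts. Depth was estimated from steps between low values of single-transcript genes, 92.0% to 97.0% of which per library were whole multiples of 1 read within 0.1. For genes with over 4 transcripts 19.9% to 26.7% were, so counts could not be recovered and no count model was used.

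The test was limma 3.58.1 (R 4.3.3) with a trend, two-sided, on log2(normalized count + 1), in 1 fit of the 3 groups. It covered the 11841 genes whose mean reached 10 normalized counts, with Benjamini-Hochberg adjustment. A call required an adjusted p under 0.1 and a log2 fold change over 0.6 in size. This scale understates the change of low genes. The p-values set a difference between group means against the spread between mice, an estimate that also draws on other genes. The fit was tested on simulated data. Alternatives were pseudocounts 0.5 and 5, no minimum and a minimum of 50, quantile and upper-quartile scaling, the deposited scale, no trend, library weights, only the groups compared, depth, a replicate block, other thresholds and each mouse left out. Levels per kilobase used GENCODE vM21, which held 14286 of the symbols.

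The 10 genes and the pathway list were chosen with earlier results of these data known. By rule the text names these 10, list genes called, paralogues and the 3 genes most like each called member. As none was called, list genes with an adjusted p under 0.1 and the genes most like 4 members were added after their values were seen. One of the genes most like Sesn1 is not reported here. Mouse numbers of different groups belong to different animals, and over 14 same-numbered pairs their deviations correlated at -0.0994 to 0.0665, so they were not taken as pairs.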

Additional observations from a re-analysis of the deposited data

Results flagged for a closer look

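Ddit4l in vehicle-treated mouse 3, at 4288 normalized counts, lay further from the rest of its group (3132 to 3444) than Dixon's 95% critical value for 5 mice allows. It was the only 1 of 30 combinations of gene and group to do so, and chance alone puts about 1 in 20 there.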

How the results depend on the processing

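The count of the 10 genes past both thresholds was 0 in each comparison under every alternative fit that kept both thresholds. Dropping the fold threshold gave 2, 0 and 1 for GDF15 against pair-feeding, GDF15 against vehicle and pair-feeding against vehicle, with Ddit4l at -0.39, Sesn1 at -0.36 and Eif4ebp1 at 0.34. For the list it gave 5, 1 and 8, and for all tested genes 257, 91 and 754. At an adjusted p under 0.05 with the fold threshold, 18, 23 and 56 of all genes passed, and on the deposited scale, which shrinks differences of low genes, 7, 9 and 17. Leaving out 1 mouse gave 15 to 62, 18 to 38 and 60 to 158 of all genes. Without pair-fed mouse 5 the counts for GDF15 against pair-feeding and for pair-feeding against vehicle were lowest (15 and 60), without pair-fed mouse 3 highest (62 and 158), and without vehicle-treated mouse 5 that for GDF15 against vehicle was lowest (18).

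On the adjusted p alone, with alternatives combined after the data were seen, the 10 genes gave 0 to 2 for GDF15 against pair-feeding when 1 mouse was left out, 0 to 1 for GDF15 against vehicle and 1 to 2 for pair-feeding against vehicle. The list gave 2 to 5, 0 to 1 and 5 to 10. With depth as a covariate, the 10 genes gave 0 for GDF15 against pair-feeding, the list 3 there and 0 for GDF15 against vehicle, and all genes 19 past both thresholds for GDF15 against vehicle. The cause was not tested. Without trend the list gave 0 for GDF15 against vehicle. With no filter, or at an adjusted p under 0.05, it gave 0 there and 5 for pair-feeding against vehicle.

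With the mouse number as a replicate block, 20 of all genes passed both thresholds for GDF15 against vehicle, and the list gave 0 there and 5 for pair-feeding against vehicle on the adjusted p alone. The adjusted p under the block was 0.063 for both Ddit4l and Sesn1 against pair-feeding and 0.0521 for Eif4ebp1 against vehicle. The numbers were not taken as pairs, but the sources used here do not say whether same-numbered mice were matched for food. The block values are therefore given as they stand.

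With the longest coding transcript as the length, the level per kilobase moved by more than its SD to 76.7 for Mtor, 95.1 for Rptor, 103 for Rps6kb1 and 26.9 for Sesn3. The share in the family moved to 58.2% for Rps6kb1, 70.4% for Sesn1, 18.8% for Sesn3 and 82.1% for Rragd.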
